A study of Mus musculus with 22 samples.

Results

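The 44 genes described here are markers of cells other than regulatory T cells (Tregs) that can be found in adipose tissue, and they were read in RNA-seq libraries of sorted Tregs. They were listed by cell type: 7 B cell genes, 9 myeloid genes, 5 class II and dendritic cell genes, 5 endothelial genes, 7 stromal genes, 5 adipocyte genes, 4 mesothelial and epithelial genes and 2 red blood cell genes. All 44 were found among the 55011 gene symbols of the count table. Their levels were summed by cell type in each library, which addresses the question of how much RNA of such cells the Treg libraries held. Tregs are FOXP3-expressing CD4 T cells that restrain immune responses, and those of visceral fat are known for keeping adipose inflammation low.

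Each of the 22 libraries was made from 1000 Foxp3-YFP+ cells that had passed through 2 rounds of sorting from visceral adipose tissue of male mice at ZT0 of the light cycle. The strain was C57BL/6 Foxp3.Cre-YFP in every group, WT included, so that YFP and Cre follow Foxp3 expression. The lean groups were 18 weeks old. Another pair of groups, also 18 weeks old, had received a lean diet for 14 weeks and then a high fat diet for 4 weeks. The last diet pair received the high fat diet for 16 weeks after 14 weeks of lean diet and was 30 weeks old. Each of these groups had 3 libraries labelled Bmal1 WT and 3 labelled Bmal1 KO. The transfer groups, with 2 WT and 2 KO libraries, held cells sorted 9 weeks after adoptive transfer, and these mice were 20 weeks old. The recipients of the transfer are not described in the sources used here. Nothing in the labels says whether the libraries of a group came from separate or pooled mice, so p-values measure the spread between these libraries, which may be technical. The 16-week groups differ from the others in age as well as in diet, and the transfer groups differ from the lean groups in experiment and sequencing depth as well as in transfer. Within each of these pairs the contributions cannot be told apart.

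Each class of markers stands for a cell type with its own work in fat. B cells carry surface immunoglobulin, macrophages and other myeloid cells engulf debris and digest it in lysosomes, and dendritic cells and B cells load peptides on class II molecules for CD4 T cells. Endothelial cells line the vessels, stromal cells lay down collagen and other matrix, adipocytes store lipid, and mesothelial cells cover the surface of the fat pad. A marker is rarely confined to 1 cell type. PECAM1, for example, is known from T cells as well as from endothelium, so each class is described here by its single genes before its sum.

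The 18 diet libraries held 1955940 to 3467019 counts each, and the 4 transfer libraries were deeper, with 4814337 to 5990319. Levels are given in CPM, the counts scaled to a common library total after TMM scaling over all 22 libraries. A level of 3 counts, the most that a count of 0 allows, was 0.554 to 1.56 CPM depending on the library, and this floor covers counting error only, since PCR copies are not independent molecules. The Treg genes were present throughout: Foxp3 ran from 395.5 to 706 CPM, Cd4 from 634 to 897 CPM and Cd3e from 695 to 985 CPM. Arntl, which encodes BMAL1, had mean levels of 68.3 to 92.6 CPM in the groups labelled WT and 83.2 to 99.0 CPM in those labelled KO. Which part of the gene was deleted is not given in the sources used here. A transcript without that part would still be counted, so the level of Arntl does not check the labels. Comparisons of KO with WT below are therefore comparisons of libraries labelled so.

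Of the 44 members, 8 had at least 1 count in every library: Cd79b, Ighm, Ctss, Cd68, Cd74, H2-Ab1, H2-Eb1 and Pecam1. A further 19 were counted in 12 to 21 libraries and 16 in 1 to 11. Krt19, a keratin of simple epithelia, had 0 counts in all 22. A single library showed 20 to 33 of the members, with a median of 27. The members together made up 0.0207% to 0.220% of a library's counts, and 4 genes, Ighm, Ctss, Cd74 and Pecam1, held 86.9% of their summed CPM on average. The heat map of all members shows these 4 rows as the bright ones and most other rows as near 0.

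**Figure D1:**
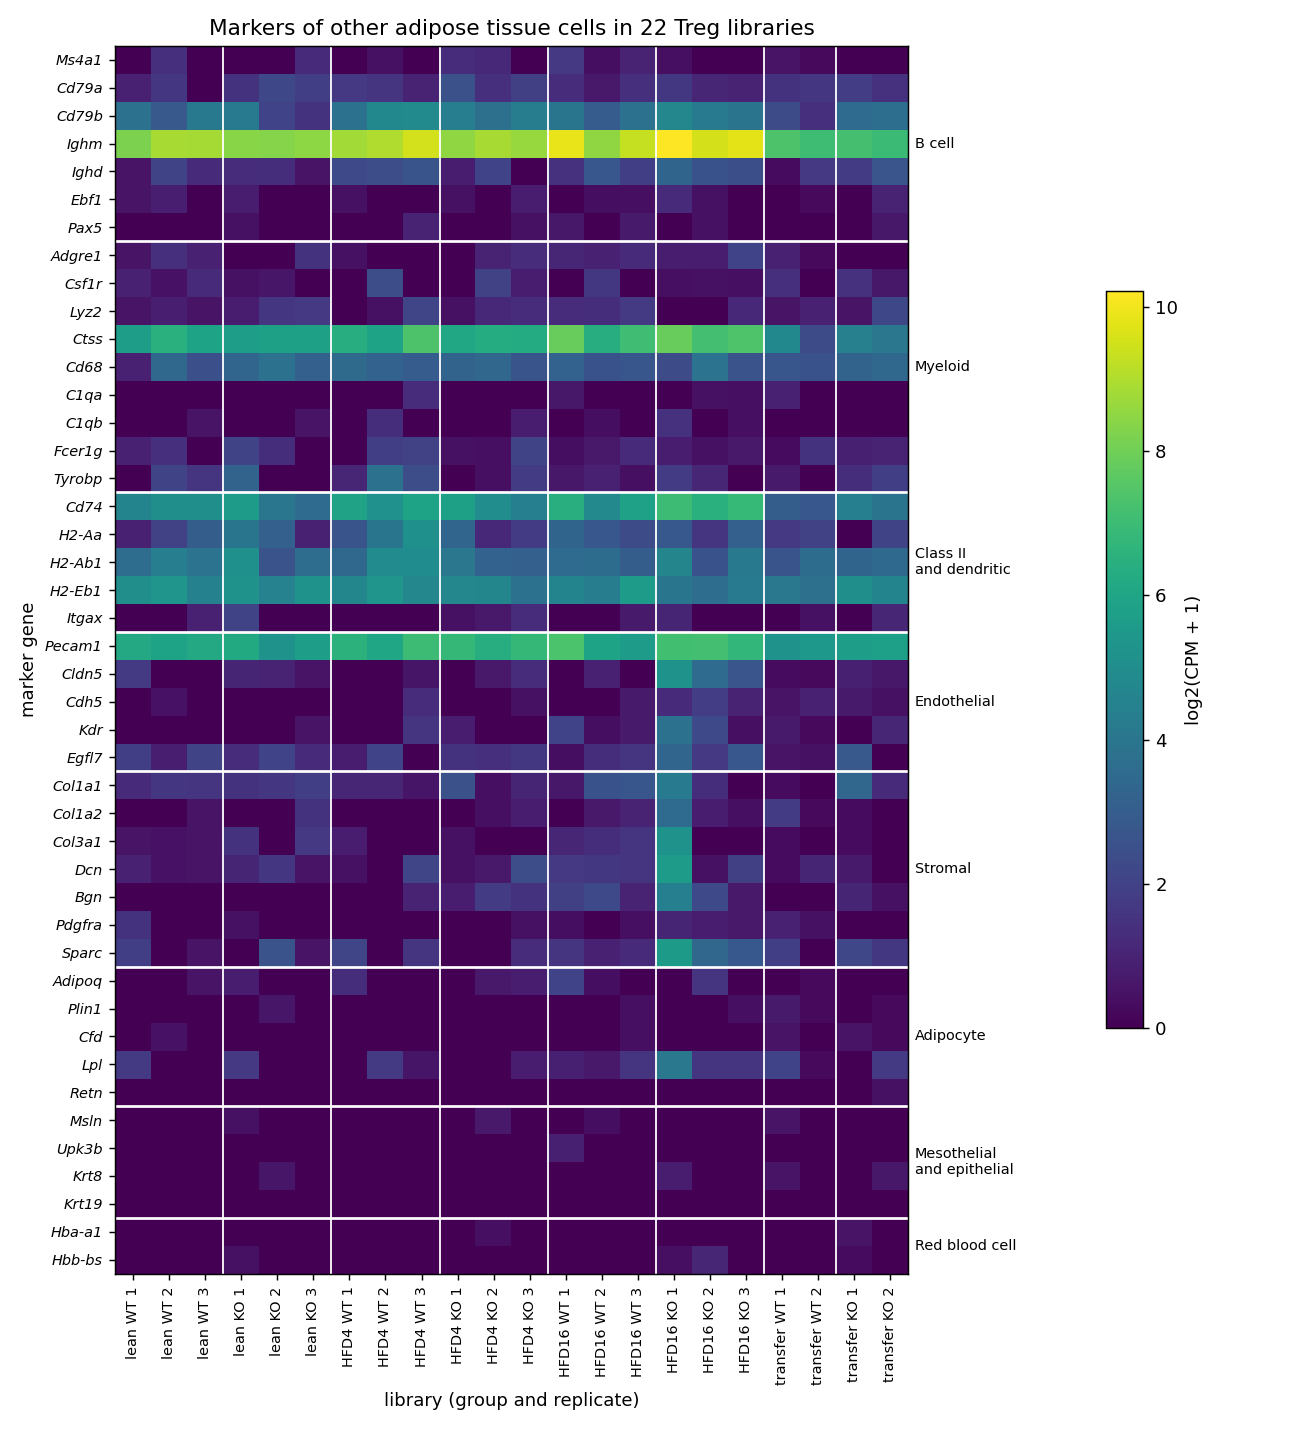
Heat map of the 44 members (rows, grouped by cell type) in the 22 libraries (columns, by group and replicate), coloured by log2(CPM + 1). Ighm, Ctss, Cd74 and Pecam1 are the brightest rows on average, Cd74 being lower in some lean KO and all transfer columns and Ctss in the transfer columns, and the stromal rows are bright in KO library 1 of the 16-week high fat group, where Dcn reaches 47.1 CPM.

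Among the B cell genes Ighm, the constant region of the IgM heavy chain, stood far above the rest. In the annotation used here (GENCODE M21, mm10) Ighm lies on chromosome 12 from 113418558 to 113422730 on the minus strand. Its level was 294, 464 and 460.5 CPM in the lean WT libraries and 332, 329 and 356 CPM in the lean KO libraries. After 4 weeks of high fat diet it was 439, 506 and 735 CPM in WT and 364, 473 and 396 CPM in KO. At 16 weeks it was 939.5, 369 and 643 CPM in WT and 1188, 754.5 and 899 CPM in KO. The transfer libraries held 165 and 131 CPM in WT and 145 and 125 CPM in KO. All 4 transfer libraries lay below all 18 diet libraries, and all 3 KO libraries at 16 weeks lay above the 12 lean and 4-week libraries. Ighm alone made up 96.1% of the mean B cell sum of 497 CPM, and the sum without it was 19.4 CPM.

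The genes that define the B cell lineage were low beside it. Pax5, which commits cells to the lineage, was counted in 7 libraries and reached at most 0.963 CPM. Ebf1, an earlier factor of the lineage, reached 1.41 CPM, and Ms4a1, which encodes CD20, reached 2.28 CPM and was at 0 in 11 libraries. Cd79a and Cd79b encode the pair of signalling chains of the B cell receptor, yet they did not show like levels. Per kilobase of exon, the mean level over 22 libraries was 253 CPM for Ighm, 9.51 CPM for Cd79b and 1.3 CPM for Cd79a, against 119 CPM for Foxp3. Cd79b was counted in every library, from 1.66 to 28.4 CPM with a median of 13.5 CPM. Ighd, the IgD heavy chain, ran from 0 to 8.79 CPM. A list of 12 further B cell genes had a mean sum of 16.3 CPM. Its leading gene Igkc, the kappa light chain constant region, had a mean of 7.23 CPM. The B cell sum is thus mainly a reading of Ighm.

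In the myeloid class the leading gene was Ctss, which encodes the lysosomal protease cathepsin S. Its level was 50.9, 89.3 and 60.2 CPM in lean WT and 49.8, 54.9 and 54.5 CPM in lean KO libraries. At 4 weeks of high fat diet the values were 82.1, 59.6 and 165 CPM in WT and 68.6, 78.3 and 77.7 CPM in KO. They were 228, 80.8 and 133 CPM in WT and 226, 142 and 167 CPM in KO at 16 weeks. After transfer they were 26.3 and 4.06 CPM in WT and 20.7 and 15.8 CPM in KO. As with Ighm, the 4 transfer libraries were the lowest of all. Ctss held 86.4% of the mean myeloid sum of 102 CPM. Without it the sum was 13.9 CPM, of which Cd68, a lysosomal membrane protein, was the main part at 0.917 to 13.9 CPM. The pseudogene Hmgb1-ps5 overlaps Ctss on the same strand in the annotation.

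The genes that set macrophages apart were near the floor. Adgre1, which encodes the macrophage surface protein F4/80, reached 3.20 CPM, and Csf1r, the receptor for the main macrophage growth factor, reached 4.28 CPM. Lyz2, the lysozyme gene of macrophages and neutrophils, reached 3.66 CPM. C1qa and C1qb, chains of complement C1q, were at 0 in 17 and 15 libraries. Fcer1g, a signalling chain of Fc receptors, reached 3.30 CPM. Among 10 further myeloid genes Apoe, the apolipoprotein E gene, led with 4.03 to 30.9 CPM in a mean sum of 12.8 CPM, and the other 9 summed to a mean of 2.54 CPM.

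Tyrobp, which encodes the adaptor DAP12 of myeloid receptors, was the myeloid member with the widest reach above its median of 1.03 CPM. It stood at 8.43 CPM in lean KO library 1, at 12.8 CPM in 4-week WT library 2 and at 4.34 CPM in 4-week WT library 3. None of the other 19 libraries exceeded 3.32 CPM. Each of these 3 libraries also held 16.7 to 24.2 CPM of Siglech, a surface lectin of plasmacytoid dendritic cells, against 0 to 1.41 CPM in the other 19. The 3 libraries were noticed by these values, so the differences carry no test.

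The class II and dendritic cell genes shared their level more evenly than the other leading classes. Cd74, the invariant chain that escorts class II molecules, gave 48.8% of the mean sum of 90.4 CPM, and with H2-Eb1 76.8%. Cd74 was at 23.4, 32.8 and 33.1 CPM in lean WT and at 49.5, 15.0 and 10.8 CPM in lean KO libraries. It was at 57.5, 35.4 and 59.7 CPM in WT and 54.6, 30.8 and 20.1 CPM in KO at 4 weeks. The 16-week values were 84.9, 26.9 and 56.9 CPM in WT and 129, 89.3 and 114 CPM in KO, the 3 KO libraries being the highest of all 22. The transfer libraries held 7.02 and 5.91 CPM in WT and 20.1 and 14.1 CPM in KO. Within lean KO, library 1, one of the 3 with Siglech, stood well above the other two.

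H2-Aa, H2-Ab1 and H2-Eb1 encode chains of the class II molecules themselves. H2-Eb1 ran from 11.6 to 47.5 CPM, and its order over the groups was not that of Cd74. Its mean was 30.7 ± 8.83 CPM (SD, n = 3) in lean WT and 31.2 ± 8.20 CPM in lean KO. At 16 weeks it was 29.8 ± 15.4 CPM in WT and 14.6 ± 2.81 CPM in KO, the group in which Cd74 was highest. In the annotation Gm20513 overlaps H2-Eb1 on the opposite strand, and since the library kit does not mark strand, reads of the pair cannot be told apart. H2-Aa was highest in the 3 libraries with Siglech, at 14.7 CPM in lean KO library 1, 14.8 CPM in 4-week WT library 2 and 33.7 CPM in 4-week WT library 3. The other 19 libraries held 0 to 9.17 CPM of it. H2-Ab1 was likewise highest in them, at 34.4, 29.6 and 30.3 CPM, against 4.88 to 23.9 CPM elsewhere. H2-Eb1 did not set them apart, with 35.9, 39.3 and 25.5 CPM inside the range of the other libraries. Itgax, which encodes CD11c, was at 0 in 13 libraries and reached 3.30 CPM in lean KO library 1. The 11 further class II and dendritic cell genes, Siglech among them, had a mean sum of 95.3 CPM, with 44.4% from H2-DMa. Cd209a, of the same list, was highest in 2 of the 3 libraries, at 5.45 and 6.26 CPM, against at most 2.25 CPM elsewhere.

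**Figure D2:**
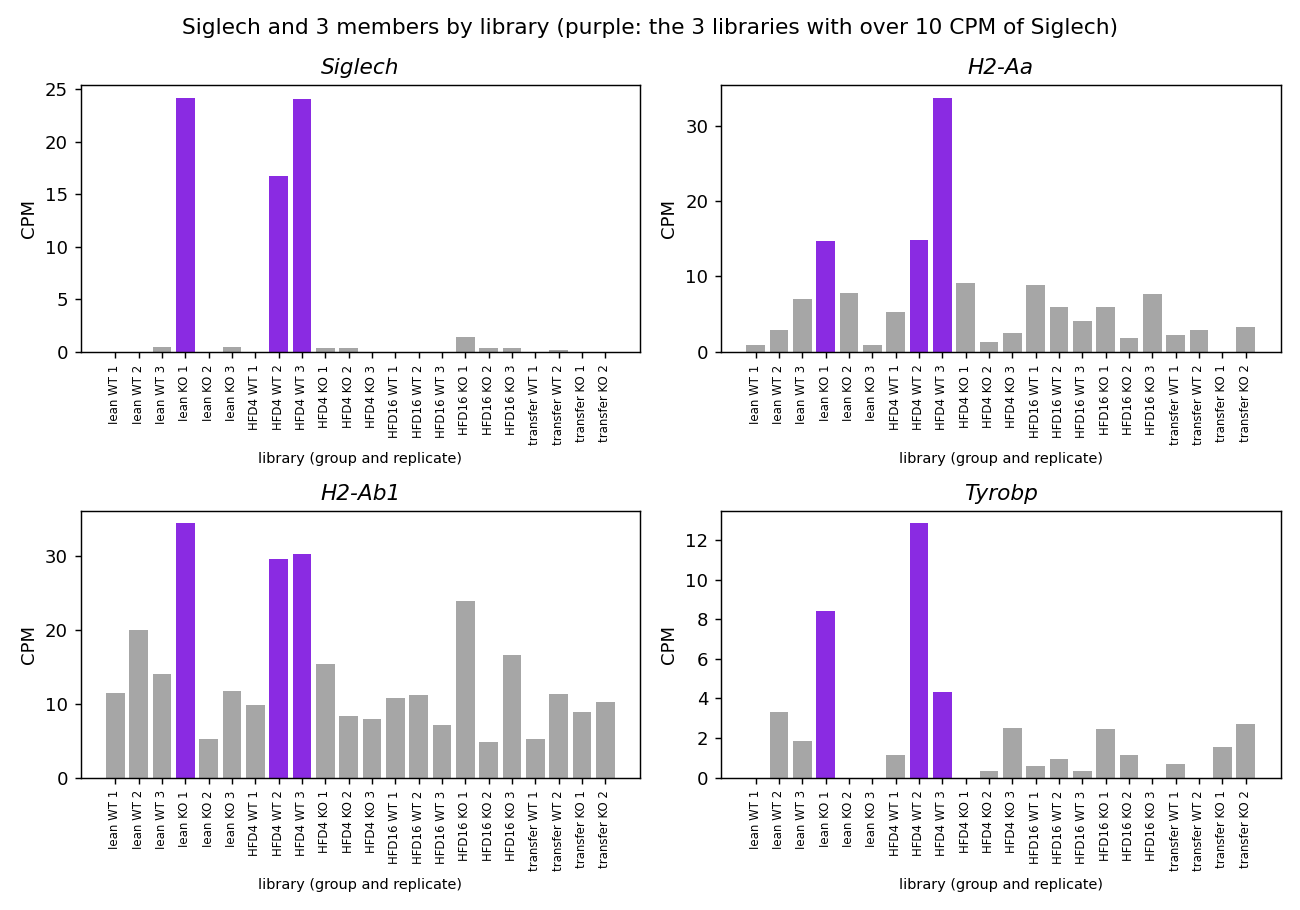
Bars give the CPM of Siglech and of the members H2-Aa, H2-Ab1 and Tyrobp in each of the 22 libraries, with the 3 libraries that hold 16.7 to 24.2 CPM of Siglech in purple. For each of the 4 genes these 3 libraries are the highest.

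The stretch just before the start of a class II gene is where its shared regulators are known to bind, and it includes a Y box around the letters ATTGG. The 150 bases before the start are shown for H2-Aa and H2-Eb1, since these 2 class II genes differed over the libraries, the first being highest in the 3 libraries with Siglech and the second not. They were taken from RefSeq (GRCm38.p6), at chr17:34287824-34287973 on the minus strand for H2-Aa and chr17:34305717-34305866 on the plus strand for H2-Eb1. Capitals mark ATTGG or its reverse complement CCAAT, searched on both strands.
H2-Aa: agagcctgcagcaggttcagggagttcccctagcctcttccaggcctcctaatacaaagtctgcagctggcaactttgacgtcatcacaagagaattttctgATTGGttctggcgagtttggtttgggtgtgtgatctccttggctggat
H2-Eb1: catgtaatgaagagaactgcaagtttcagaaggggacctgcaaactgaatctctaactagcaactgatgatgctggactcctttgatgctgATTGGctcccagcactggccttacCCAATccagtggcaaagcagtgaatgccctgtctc
ATTGG begins 48 bases before the start of H2-Aa and 59 bases before that of H2-Eb1, which also holds CCAAT 35 bases before it. Of 32851 promoter entries, 24.5% hold the motif on either strand within the same length, so a match is common and is given as a description only.

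Among the endothelial genes Pecam1, which encodes the adhesion molecule CD31, held 92.2% of the mean sum of 88.3 CPM. It was at 71.6, 60.2 and 71.4 CPM in lean WT and at 73.6, 37.3 and 52.2 CPM in lean KO libraries. At 4 weeks it was at 93.8, 65.4 and 126 CPM in WT and at 110, 80.8 and 111 CPM in KO. The 16-week libraries held 159, 60.0 and 48.1 CPM in WT and 139.6, 140.4 and 107 CPM in KO, and the transfer libraries 36.9 and 42.5 CPM in WT and 51.9 and 52.9 CPM in KO. The WT libraries at 16 weeks thus covered nearly the whole range of the diet libraries. The other 4 endothelial members, without Pecam1, had a median sum of 3.19 CPM, but reached 61.2 CPM in KO library 1 of the 16-week group.

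Cldn5, the tight junction protein of vessel walls, was the endothelial member that varied most against its median. It was at 37.3, 10.9 and 5.43 CPM in the 3 KO libraries at 16 weeks. In the WT libraries at 16 weeks it was at 0, 0.928 and 0 CPM, and over the 19 libraries outside the 16-week KO group it never passed 2.29 CPM. Kdr, the receptor for the vessel growth factor VEGF, reached 13.4 CPM in 16-week KO library 1 and at most 3.75 CPM elsewhere. Egfl7, a secreted endothelial factor, reached 9.14 CPM there and 6.18 CPM elsewhere. Cdh5, the cadherin of endothelial junctions, had at most 2.63 CPM in any library. Among 10 further endothelial genes, Rgcc, a cell cycle regulator that was also the most abundant of them, held 92.3% of a mean sum of 126 CPM and was at 42.2 CPM in that library, below its median of 99.8 CPM.

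The stromal genes had their highest level in 1 library. Their sum was 181 CPM in KO library 1 of the 16-week group, 16.5 CPM in the next highest library and 6.79 CPM in the median of the other 21. Dcn, the matrix proteoglycan decorin, was at 47.1 CPM there, with a median of 0.790 CPM over all 22 libraries. Sparc, a secreted collagen-binding protein, was at 46.4 CPM there and at 9.38 and 6.07 CPM in the other two KO libraries at 16 weeks. Col3a1, a chain of fibrillar collagen III, was at 37.3 CPM there and at most 2.25 CPM in any other library. Col1a1 and Col1a2, the chains of collagen I, were at 17.9 and 10.9 CPM there. Bgn, the proteoglycan biglycan, was at 20.0 CPM there and at 0 in all 6 lean libraries. Pdgfra, a receptor of fibroblasts and their progenitors, was the exception among the 7 and did not exceed 1.83 CPM in any library.

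KO library 1 of the 16-week group was the highest of the 22 for 16 of the 44 members. By class it was the highest for 6 of 7 stromal, 3 of 5 endothelial and 1 of 5 adipocyte members. It was also the highest for 3 of 7 B cell, 1 of 9 myeloid, 1 of 5 class II and 1 of 4 mesothelial and epithelial members. The same held for 9 of 10 further stromal genes, 8 of 10 further endothelial genes and 3 of 10 further adipocyte genes, which were listed apart from the members. Of the other further lists it held for 2 of 12 B cell, 1 of 10 myeloid, 1 of 11 class II and 1 of 8 mesothelial genes. For comparison, 6.68% of all genes with a count had their highest level in this library. Gsn, the actin-binding gelsolin, led the further stromal genes with 311 CPM there against 39.6 to 107 CPM in the other 21, and gave 91.9% of their mean sum of 84.5 CPM. The level of Foxp3 in this library was 395.5 CPM, the lowest of the 22. The sum of 8 Treg and T cell identity genes, Foxp3 among them, was not low there. It was 5399 CPM, against a median of 5356 CPM over the 22. In such bulk libraries more cells of a type and more RNA per cell cannot be told apart.

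**Figure D3:**
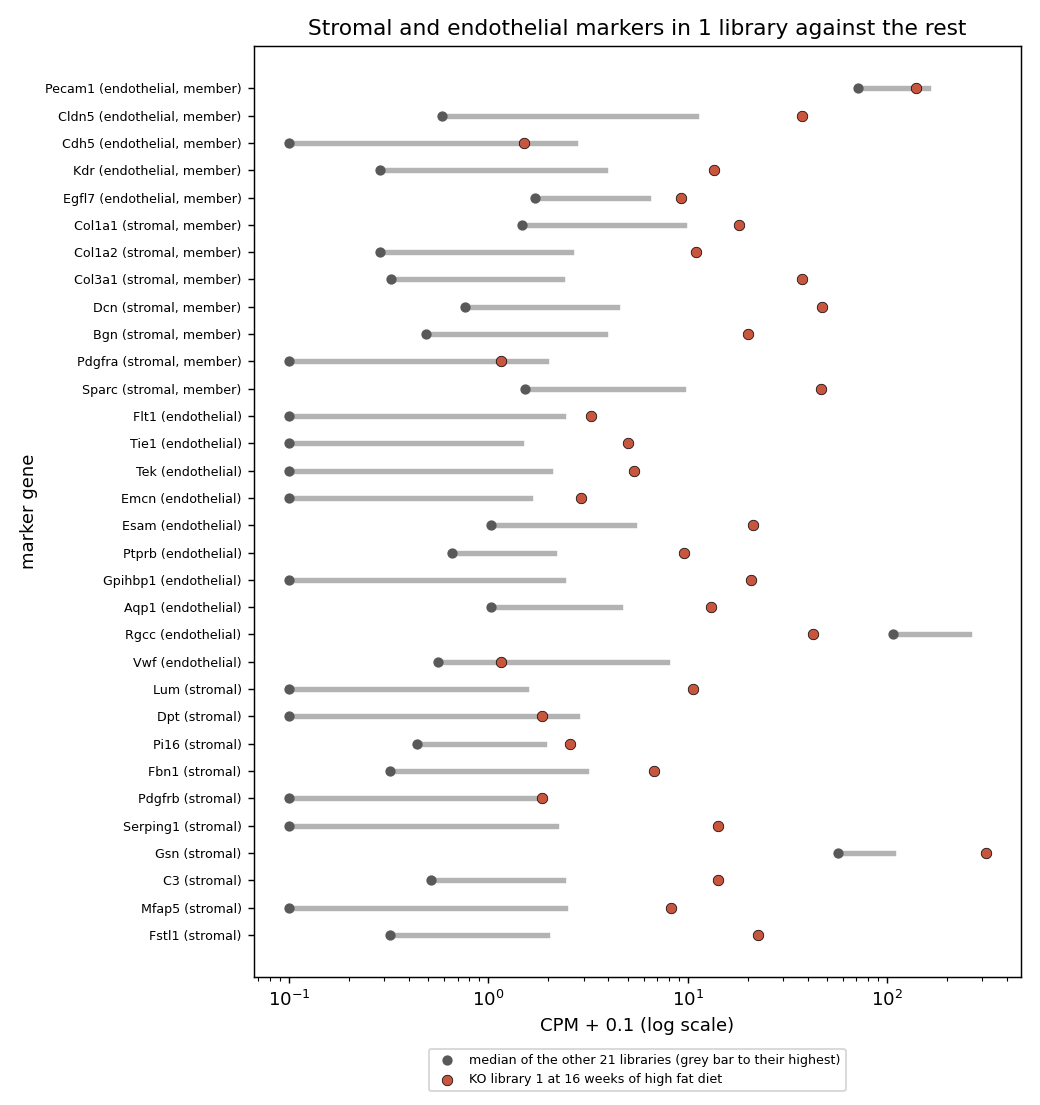
Level of the 12 endothelial and stromal members and of 20 further genes of the 2 classes in KO library 1 of the 16-week high fat group (red), beside the median of the other 21 libraries (dark grey) and a bar to their highest value, on a log axis of CPM + 0.1. The red point lies beyond the grey bar for 6 of 7 stromal and 3 of 5 endothelial members.

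Adipocyte genes were close to the floor in most libraries, with a mean sum of 2.31 CPM. Lpl, the lipoprotein lipase that is made by adipocytes and other cells, gave 72.4% of it and stood at 15.8 CPM in 16-week KO library 1, against at most 3.17 CPM in the others. The more specific genes were sparse: Adipoq, which encodes adiponectin, reached 3.13 CPM and was at 0 in 13 libraries. Plin1, the perilipin of lipid droplets, reached 0.679 CPM, Cfd, which encodes adipsin, 0.453 CPM, and Retn, which encodes resistin, 0.385 CPM. Mesothelial and epithelial members had a mean sum of 0.222 CPM. Msln, Upk3b and Krt8, a mesothelial surface protein, a uroplakin and a keratin, were counted in 4, 1 and 4 libraries, with 6, 3 and 8 counts in all. The red blood cell globins Hba-a1 and Hbb-bs had 3 and 6 counts over all libraries and a mean sum of 0.128 CPM.

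The further lists of these low classes were not as low, and each was carried by 1 or 2 genes. The 8 further mesothelial and epithelial genes had a mean sum of 102 CPM, of which Lrrn4 gave 80.3%, while Wt1, Upk1b and Nkain4 had 8, 1 and 2 counts in all. The 10 further adipocyte genes had a mean sum of 47.0 CPM, led by Lipe and Acsl1, enzymes of lipid breakdown and fatty acid activation, while Lep, the leptin gene, had 2 counts. The 7 cytotoxic T and NK cell genes had a mean sum of 205 CPM with 85.0% from Nkg7, a granule protein. Cd8a and Cd8b1, the chains of CD8, had 2 and 1230 counts. Plasma cell and granulocyte and mast cell lists had mean sums of 2.76 and 1.15 CPM. The 4 further red blood cell genes had a mean sum of 2.08 CPM, of which Alas2, a heme synthesis enzyme, gave 95.0%. The 8 Treg and T cell identity genes summed to a mean of 6682 CPM.

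**Figure D4:**
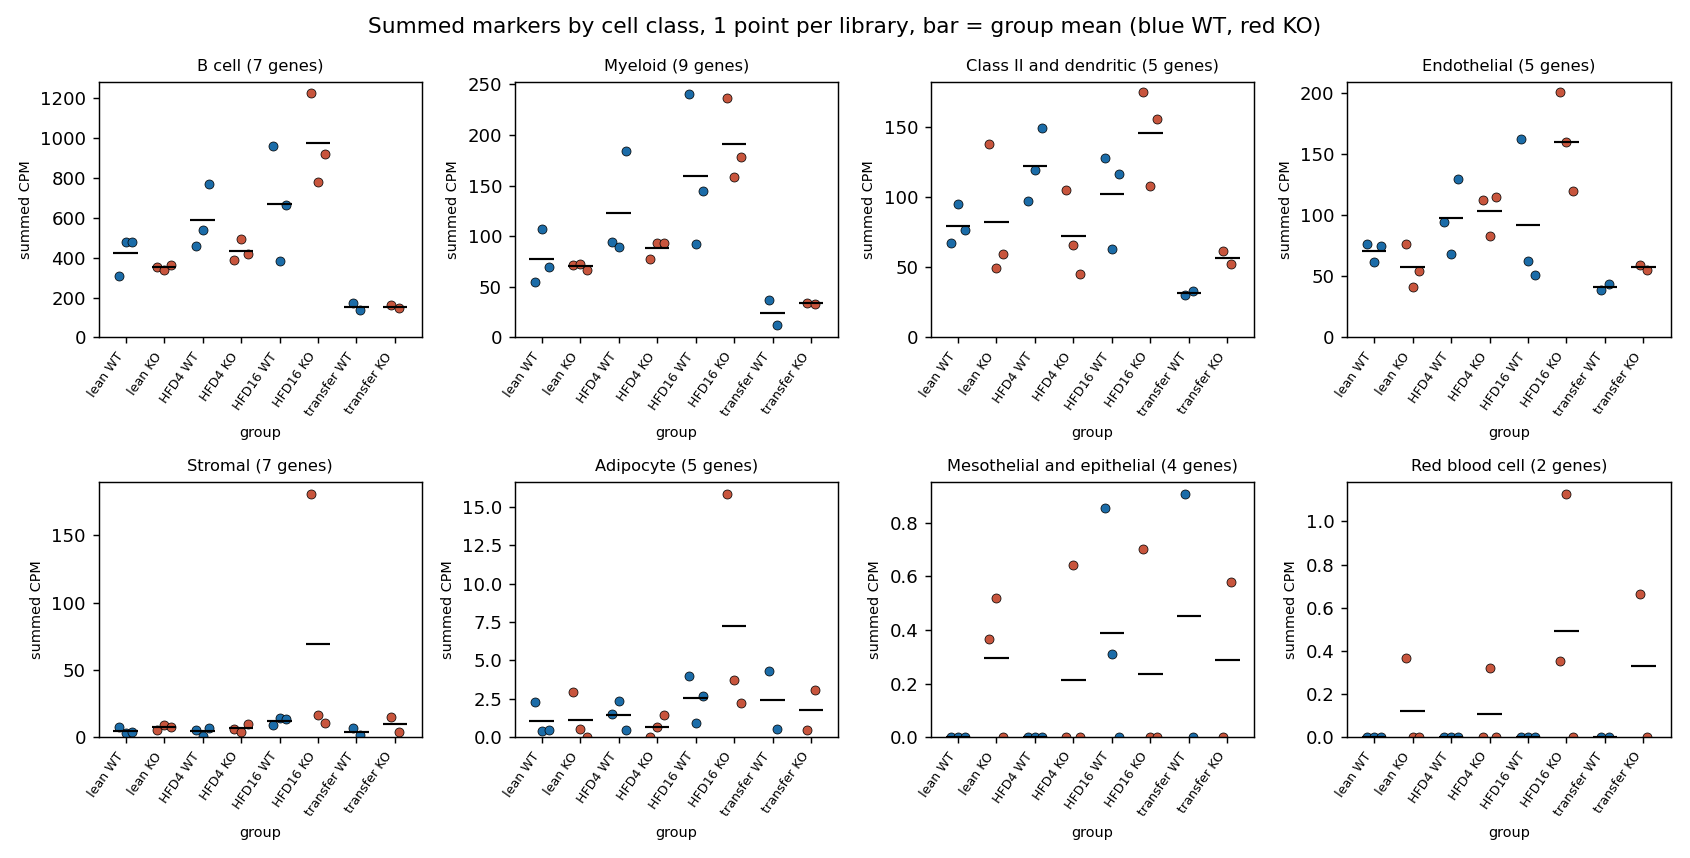
Summed CPM of the members of each of the 8 classes, 1 point per library, by group, with a bar at the group mean, WT in blue and KO in red, and a separate axis from 0 in each panel. The stromal panel holds 1 point at 181 CPM far above the rest, and the lowest B cell and myeloid sums are those of the 4 transfer libraries.

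Between 16 weeks of high fat diet and the lean diet, Ighm, Ctss and Cd74 rose when the genotypes were averaged, and so did Pecam1 and Bgn by the same test. Of the 44 members, 15 passed the filter on low counts in the diet libraries, and 5 of these were called higher and 0 lower. Among all 11698 genes tested, 6.63% were called in either direction and 2.92% were called higher (edgeR quasi-likelihood F test, Benjamini-Hochberg adjustment over all genes, threshold 0.05). The 15 passed in part through the groups in which they are high, so their share is not read against this background as support. Bgn and Cldn5 passed only through libraries at 16 weeks, so their p-values are given as values and not as support. For the same reason nothing is read from their median log2 fold change of 1.07 beside -0.00 over all genes tested.

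Ctss rose by a log2 fold change of 1.43 ± 0.24 (standard error), with an adjusted p of 0.000905 in edgeR, from a mean of 59.9 to 163 CPM. Ighm rose by 1.07 ± 0.18 on the log2 scale, from 373 to 799 CPM (edgeR adjusted p = 0.000998), and Cd74 by 1.5 ± 0.31, from 27.4 to 83.4 CPM (edgeR adjusted p = 0.00537). For Ighm 5 of the 6 libraries at 16 weeks lay above the highest lean library, WT library 2 being the exception, and the same library was the exception for Ctss. These 3 calls held in every fit that left out 1 library, with adjusted p up to 0.0206 for Cd74, 0.00446 for Ctss and 0.0046 for Ighm. Without KO library 1 of the 16-week group, which stood apart for stromal genes, the log2 fold changes were 1.33 for Ctss, 0.97 for Ighm and 1.44 for Cd74. Without the 3 libraries that held Siglech they were 1.41, 1.07 and 2.00.

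The other two calls of that comparison rested on fewer libraries. Pecam1 rose by 0.80 ± 0.23 on the log2 scale (edgeR adjusted p = 0.0422), from 61.1 to 109 CPM, and this call was lost in 12 of 18 fits that left out 1 library, with adjusted p up to 0.163 without WT library 1 of the 16-week group. Bgn was at 0 in the 6 lean libraries and at 2.85, 3.71 and 1.01 CPM in WT and 20.0, 3.75 and 0.639 CPM in KO at 16 weeks (edgeR adjusted p = 0.00622). Against 3 counts in each lean library its mean level was at least 3.99-fold higher, and at least 1.79-fold higher without KO library 1. In the fit without that library Bgn did not pass the filter on low counts and was not tested, and 3 members, Cd74, Ctss and Ighm, were called. The members that did not pass the test included H2-Eb1 with -0.58 ± 0.24, H2-Ab1 with -0.43 ± 0.40, H2-Aa with 0.10 ± 0.59, Cd68 with -0.05 ± 0.39 and Cd79b with 0.62 ± 0.38 on the log2 scale. Leading and second genes of a class therefore did not share a call: Ctss rose and Cd68 was not called, and Cd74 rose while H2-Ab1 and H2-Eb1 were not called.

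**Figure D5:**
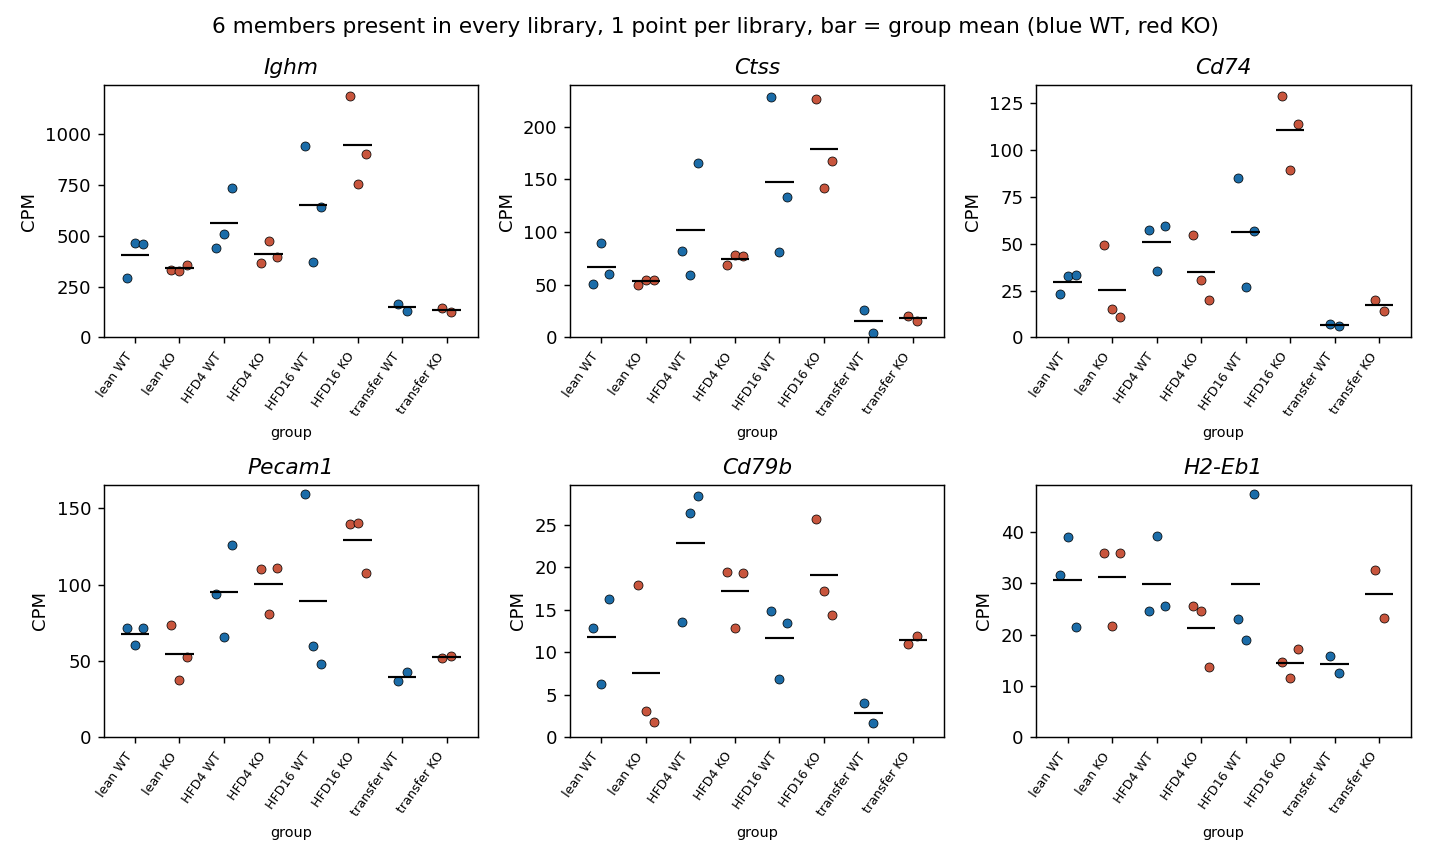
CPM of Ighm, Ctss, Cd74, Pecam1, Cd79b and H2-Eb1, 1 point per library by group, with a bar at the group mean, WT in blue and KO in red, each axis starting at 0. For Ighm, Ctss and Cd74 the means at 16 weeks of high fat diet are above the lean means in both genotypes, and the 4 transfer libraries are low, while H2-Eb1 has its lowest diet mean, 14.6 CPM, in the 16-week KO group.

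Within the libraries labelled KO, 6 members were called higher at 16 weeks than on the lean diet and 0 lower, where 5.95% of all genes were called in either direction and 2.36% higher. They were Ighm with a log2 fold change of 1.48 ± 0.26 (edgeR adjusted p = 0.00152), Ctss with 1.75 ± 0.34 (edgeR adjusted p = 0.00371), Cd74 with 2.11 ± 0.44 (edgeR adjusted p = 0.00678), Cldn5, Bgn and Pecam1. Cldn5 rose by 4.29 ± 1.03 (edgeR adjusted p = 0.0156) and Pecam1 by 1.23 ± 0.33 (edgeR adjusted p = 0.0302). Cldn5 passed the filter only through the KO libraries at 16 weeks, with 106, 29 and 17 counts. Its p-value, like that of Bgn, is therefore not read as support. Bgn, with its lean KO libraries at 0, was at least 6.10-fold higher (edgeR adjusted p = 0.0197), or at least 1.65-fold higher without KO library 1 of the 16-week group. Without that library Ighm, Ctss and Cd74 were called, and Cldn5 had a log2 fold change of 3.16 with an adjusted p of 0.144. The same 3 were called without lean KO library 3. Leaving out lean KO library 1 ended the calls of Bgn and Cldn5, with adjusted p of 0.0774 and 0.0666. Leaving out lean KO library 2 ended those of Bgn, Cldn5 and Pecam1, with adjusted p of 0.0634, 0.0615 and 0.136, and leaving out KO library 2 of the 16-week group ended that of Pecam1 (adjusted p = 0.0836). Without the 3 libraries that held Siglech, Bgn and Cldn5 were not called, with adjusted p of 0.0746 and 0.0704.

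Within the WT libraries edgeR called 0 members at 16 weeks against lean, where 0.0855% of all genes were called. DESeq2 also called 0, and 3 members, Ctss, Bgn and Ighm, had an unadjusted p under 0.05. On the log2 scale Ctss had 1.12 ± 0.33 (edgeR adjusted p = 0.239) and Ighm 0.66 ± 0.25 (0.433). Bgn was at 0 in the lean WT libraries and at 2.85, 3.71 and 1.01 CPM in the WT libraries at 16 weeks. In fits that left out 1 library its edgeR adjusted p was 0.286 to 0.659. Cd74, not among the 3, had 0.89 ± 0.44 on the log2 scale (edgeR adjusted p = 0.583). The difference between the genotypes in this response was tested by the interaction term, which called 0 members and 0% of all genes, with 3 members at an unadjusted p under 0.05 and 0 called by DESeq2. Its values were 0.83 ± 0.36 for Ighm, 1.21 ± 0.62 for Cd74, 5.47 ± 1.90 for Cldn5 and -1.04 ± 0.49 for H2-Eb1, with edgeR adjusted p of 0.541, 0.615, 0.418 and 0.585. A difference between the genotypes in this response is thus not shown.

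After 4 weeks of high fat diet edgeR called 0 members against the lean diet, and 0% of all genes. DESeq2 called 0, and 4 members had an unadjusted p under 0.05. Those of smallest p were Pecam1 with 0.67 ± 0.23 (edgeR adjusted p = 0.425), Cd79b with 1.02 ± 0.38 (0.472) and Ctss with 0.54 ± 0.24 (0.577) on the log2 scale. Between 4 and 16 weeks 2 members were called higher, Ighm with 0.71 ± 0.18 (edgeR adjusted p = 0.0423) and Ctss with 0.89 ± 0.23 (edgeR adjusted p = 0.0468), beside 2.12% of all genes called in either direction and 0.59% higher. Both lay near the threshold. Both calls were lost in 11 of 18 fits that left out 1 library and that of Ctss in 2 more, with adjusted p up to 0.155 for Ctss without WT library 1 of the 16-week group and 0.136 for Ighm without the same library. Cd74 had 0.90 ± 0.30 and an adjusted p of 0.142.

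Libraries labelled KO and WT were compared within each diet, and edgeR called 0 members in each. In the lean libraries 0.0427% of all genes were called, 0 members had an unadjusted p under 0.05 and DESeq2 called 0. The members of smallest p there were Cd68 with 0.98 ± 0.56, H2-Aa with 1.12 ± 0.87 and Ighm with -0.26 ± 0.26 on the log2 scale. At 4 weeks 0.0684% of all genes were called, 1 member had an unadjusted p under 0.05 and DESeq2 called 0. H2-Aa was at -2.06 ± 0.81, Ighd at -1.68 ± 0.81 and Tyrobp at -2.65 ± 1.30, each with an edgeR adjusted p of 0.999. WT libraries 2 and 3 of this comparison are 2 of the 3 with Siglech, and without these 3 libraries H2-Aa was at -0.29. Averaged over the 3 diets, 0.18% of all genes were called, 2 members had an unadjusted p under 0.05 and DESeq2 called 0, with Cldn5 at 2.62 ± 0.84 (edgeR adjusted p = 0.415) and H2-Eb1 at -0.49 ± 0.20 (0.574).

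At 16 weeks the libraries labelled KO and WT differed most among the members, though edgeR called 0 of them beside 0.0427% of all genes. Here 5 members had an unadjusted p under 0.05, and DESeq2 called 1, Cldn5. Cldn5 had a log2 fold change of 5.67 ± 1.12 and an edgeR adjusted p of 0.0994, where DESeq2 gave an adjusted p of 0.0112. In edgeR Cldn5 passed the filter only through its 3 KO libraries, so these p-values are given as values only. Its 3 KO libraries, at 5.43 to 37.3 CPM, lay above its 3 WT libraries, at 0 to 0.928 CPM. Without KO library 1 its log2 fold change was 4.53 with an edgeR adjusted p of 0.566. Sparc had 3.83 ± 1.08 (edgeR adjusted p = 0.243), or 2.41 without that library, and its 3 KO libraries also lay above the 3 WT ones. H2-Eb1 had -1.01 ± 0.35 (edgeR adjusted p = 0.346), its KO libraries at 11.6 to 17.3 CPM lying below the WT ones at 18.9 to 47.5 CPM. Of the 15 members tested, 3, Cd74, Cldn5 and Sparc, had all KO libraries above all WT libraries, and 1, H2-Eb1, had all below. Of all genes tested, 5.76% had all 3 KO libraries above all 3 WT libraries and 8.28% all below. The members passed the filter in part through groups in which they are high, so their counts are not read against these shares as support. Cd74 had 1.00 ± 0.41 (edgeR adjusted p = 0.452), so that 2 genes of the same class lay on opposite sides of 0 without either passing the test. Pecam1, at 0.56 ± 0.32 with all libraries, was the 1 member called without WT library 1, and it was not called with all libraries.

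The transfer libraries held less Ighm, Ctss and Cd74 than the lean ones. Of the 18 members that passed the filter in the fit of all 22 libraries, 3 were called lower and 0 higher, beside 16.2% of all genes called in either direction and 8.81% lower. Ighm fell by 1.45 ± 0.21 on the log2 scale (edgeR adjusted p = 4.17e-05), from 373 to 142 CPM, and Ctss fell by 1.91 ± 0.37 (edgeR adjusted p = 0.000877), from 59.9 to 16.7 CPM. Cd74 fell by 1.45 ± 0.37 (edgeR adjusted p = 0.0092), from 27.4 to 11.8 CPM, and was no longer called without lean KO library 1 (adjusted p = 0.0592), without transfer KO library 2 (0.05) or without the 3 libraries that held Siglech (0.0644). Pecam1 was at -0.47 ± 0.25 and Cd68 at -0.08 ± 0.41 without passing the test. Trac, the constant region of the T cell receptor alpha chain and no marker of another cell, was higher by 3.63 ± 0.12 in the same comparison (edgeR adjusted p = 4.62e-16). Trac was at 4239 to 8195 CPM in the transfer libraries and at 454 to 662 CPM in the lean ones. Its part in the lower share of other genes was not tested.

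Between KO and WT after transfer edgeR called 0 of the 12 members tested, beside 0.171% of all genes. DESeq2 called 0, and 3 members had an unadjusted p under 0.05. These were Cd79b with 2.00 ± 0.65 (edgeR adjusted p = 0.640), Cd74 with 1.39 ± 0.47 (0.666) and H2-Eb1 with 0.97 ± 0.35 (0.689) on the log2 scale. Cd79b was at 4.08 and 1.66 CPM in WT and at 11.03 and 11.9 CPM in KO. In 6 of the 12 members, Cd79b, Ighd, Cd68, Cd74, H2-Eb1 and Pecam1, both KO libraries lay above both WT libraries, and in 0 did both lie below. Of all genes tested, 18.5% had both KO libraries above and 17.3% both below. The 12 members passed the filter in part through libraries in which they are high, so their counts are not read against these shares as support. Each group had 2 libraries, and for Ighd the order rested on 11 against 12 counts.

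Whether 2 leading members of a class moved together over the 18 diet libraries was tested by 9 correlations of log2(CPM + 1). Their p came from permutation, with Benjamini-Hochberg adjustment over the 9. Libraries were permuted without regard to group, so these p-values also take in differences between the 6 groups. For the r of deviations from group means no p was computed. Ighm and Cd79b gave r = 0.46 (permutation p = 0.0516, adjusted p = 0.155) and rho = 0.42 (permutation p = 0.0851, adjusted p = 0.255). Ctss and Cd68 gave r = 0.03 (permutation p = 0.895, adjusted p = 1) and rho = -0.04, and Cd74 and H2-Eb1 gave r = -0.31 (permutation p = 0.216, adjusted p = 0.389) and rho = -0.25. The latter pair had r = -0.10 without the 2 libraries farthest from the median of Cd74 and r = 0.28 for deviations from the 6 group means, so its sign was not stable. Pecam1 and Cldn5 gave r = 0.42 (permutation p = 0.0864, adjusted p = 0.194) and rho = 0.30. None of these pairs within a class passed the threshold.

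Sparc and Dcn gave r = 0.73 (permutation p = 0.00412, adjusted p = 0.0185) but rho = 0.47 (permutation p = 0.0524, adjusted p = 0.236). Their r was 0.58 without KO libraries 1 and 2 of the 16-week group, and 0.68 for deviations from the 6 group means. The pair across classes, Ighm and Cd74, had the highest r of the 9 over all 18 libraries, at 0.82 (permutation p = 4e-05, adjusted p = 0.00036). Its rho was 0.80 (permutation p = 9e-05, adjusted p = 0.00081). Both genes were called higher at 16 weeks than on the lean diet, a group difference that enters these values. Without the 2 libraries farthest from the median of Ighm r was 0.75. For deviations from the 6 group means it was 0.45, below that of Sparc and Dcn. The remaining pairs, Lpl with Adipoq, Msln with Krt8 and Hbb-bs with Hba-a1, had r between -0.15 and -0.10 on counts near 0.

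Of the 75 further marker genes 19 passed the filter in the diet libraries, and 6 were called higher at 16 weeks than on the lean diet and 1 lower. Over all genes 2.92% were called higher and 6.63% in either direction. Like the members, the 19 passed in part through the groups in which they are high, so their share is not read against this background as support. Of the class II pathway H2-DMa rose by 0.63 ± 0.15, H2-Oa by 1.07 ± 0.28 and H2-Ob by 1.01 ± 0.28 on the log2 scale, genes whose products help to load or hold back peptide loading on class II molecules, with edgeR adjusted p of 0.0123, 0.0238 and 0.0295. Cr2, a complement receptor of B cells, rose by 1.94 ± 0.58, Fabp4, a fatty acid carrier of adipocytes and vessels, by 1.84 ± 0.55, and Muc16, a mucin of mesothelium, by 1.27 ± 0.36, with edgeR adjusted p of 0.0484, 0.0478 and 0.0369. Rgcc, of the endothelial list, fell by 1.52 ± 0.18 (edgeR adjusted p = 3.83e-05). The Treg gene Il2ra, the alpha chain of the IL-2 receptor, fell by 0.86 ± 0.13 (edgeR adjusted p = 0.00031). The list of 8 Treg and T cell identity genes that holds Il2ra did not fall as a whole. Its mean sum at 16 weeks was 5361 CPM in WT and 5273 CPM in KO. On the lean diet it was 4929 CPM in WT and 5466 CPM in KO. With 1 library left out at a time, the calls of Rgcc and H2-DMa held in all 18 fits. The others were lost in 17 fits for Cr2, 12 for Fabp4, 8 for H2-Ob, 8 for Muc16 and 6 for H2-Oa, with adjusted p up to 0.133, 0.229, 0.12, 0.0873 and 0.0702. Fabp4 stood at 52.0 CPM in KO library 1 of the 16-week group, against a median of 3.28 CPM over the 22 libraries. Its mean at 16 weeks was 5.47 times the lean mean, and 2.34 times without that library, where its log2 fold change was 1.17 (edgeR adjusted p = 0.229). The other 4 of these calls were lost without that library too, with adjusted p of 0.0781 for Cr2, 0.063 for H2-Oa, 0.0502 for H2-Ob and 0.0846 for Muc16.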

How the data were processed

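The deposited table holds raw whole-number counts per gene and library. The submitters' processing notes name mm10, STAR 2.7.3a and featureCounts, whose strand setting is not given in the sources used here. Members and gene lists were chosen with earlier results of these data known. Groups follow the labels. After TMM scaling, the quasi-likelihood F test of edgeR 4.0.16 (R 4.3.3) was run behind its filter (minimum count 10), with 11698 genes in the 18 diet libraries, 11715 in the 4 transfer libraries and 12523 in all 22. Permutation tests used 100000 draws. Fits were tested on simulated data with 1 fixed spread between libraries. For KO against WT on the lean diet they recovered 6% of 2-fold and 96% of 4-fold changes. After transfer the shares were 6% and 76%. A result of 0 members called therefore does not exclude differences of 2-fold. Members were named when called in any comparison, highest or most variable in their class, or of smallest p where none was called. Further genes were named when called or leading their list, and some defining genes as values only, chosen after their values were seen. Alternatives were RLE and library total scaling, no filter, DESeq2 1.42.0, a replicate block, another pseudocount and leaving out libraries. Of the gene symbols, 96.2% were found in GENCODE M21.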

Additional observations from a re-analysis of the deposited data

Results flagged for a closer look

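Ighd, the IgD heavy chain, was lower in every KO library than in every WT library after 4 weeks of high fat diet, with a log2 fold change of -1.68. After transfer it was higher in both KO libraries than in both WT libraries, with 1.62. The order after transfer rested on 2.43 CPM in KO library 1 against 2.22 CPM in WT library 2, or 11 against 12 counts. H2-Eb1 was lower in every KO library at 16 weeks of high fat diet, with -1.01, and higher in both KO libraries after transfer, with 0.97. Of all genes tested, 4.97% had every KO library below every WT library at 4 weeks and 8.28% at 16 weeks. After transfer 18.5% had both KO libraries above both WT libraries. In both genes all libraries of 1 setting moved opposite to all libraries of the other, and this drew attention to them. The difference between the settings was not tested, since the transfer libraries were fitted apart from the diet libraries.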

How the results depend on the processing

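No call of a member and none of the fold changes refitted under each alternative changed sign. Members named with a value but not called, beyond the 3 of smallest p, were not refitted one by one. The r of Lpl with Adipoq went from -0.11 to 0.11 without the 2 libraries farthest in Lpl. Without the filter on low counts 42 members were tested, and members called are given beside the number of all genes called. KO against WT gave 1 beside 75 at 4 weeks (H2-Aa), 7 beside 428 at 16 weeks and 1 beside 273 averaged over diets (Cldn5). Against lean there were 5 beside 161 at 4 weeks and 9 beside 1081 at 16 weeks. For 16 weeks against lean there were 4 beside 178 in WT and 12 beside 1085 in KO. There were 8 beside 536 for 16 against 4 weeks and 3 beside 258 for the interaction. No share over all genes is given for this fit, so these counts are not read as a result about the members. DESeq2 called 1 member beside 44 genes for KO against WT at 16 weeks. For 16 against 4 weeks, 0 members were called without the 3 libraries that held Siglech, and 0 without these and KO library 1 of the 16-week group. These 2 alternatives were chosen after seeing the data. Without their highest member the mean sums were 19.4 CPM for B cell, 13.9 CPM for myeloid, 46.3 CPM for class II and 6.87 CPM for endothelial genes.

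With the replicate number as a block, 0 members were called for 16 against 4 weeks, with adjusted p of 0.0586 for Ctss and 0.0574 for Ighm, and no other member call changed. For all genes the block gave 5 calls against 8 for KO against WT at 4 weeks, 1 against 0 for 4 weeks against lean and 40 against 20 after transfer. Same-numbered diet libraries had deviations correlated at -0.14 to 0.18, with 3 of 45 pairs over 0.1, and 6 of 18 libraries correlated best with their own number, so the numbers do not pair them.

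Leaving out 1 library at a time gave 0 to 1 members for KO against WT at 16 weeks, 3 to 7 for 16 weeks against lean, 0 to 3 for 16 against 4 weeks, 3 to 7 for 16 weeks against lean in KO and 2 to 4 for transfer against lean. Where a group was left with 2 libraries, its spread was pooled with that of the others.

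For all genes, the counts called by edgeR without the filter and by DESeq2 were 135 and 23 against 5 for KO against WT on the lean diet, 428 and 44 against 5 at 16 weeks, 273 and 34 against 21 averaged, 536 and 386 against 248 for 16 against 4 weeks, and 102 and 57 against 20 after transfer. They were 178 and 92 against 10 for 16 weeks against lean in WT, 161 and 47 against 0 for 4 weeks against lean and 258 and 27 against 0 for the interaction. Without the filter 75 genes against 8 were called for KO against WT at 4 weeks, and 1085 against 696 for 16 weeks against lean in KO. Without the 3 libraries that held Siglech, 3 genes were called for KO against WT at 4 weeks and 8 at 16 weeks, 89 for 16 against 4 weeks and 403 for 16 weeks against lean in KO. Without KO library 1 of the 16-week group as well, the last pair of counts were 36 and 229, and 394 against 776 genes were called for 16 weeks against lean. With 1 library left out the counts ran from 483 to 967 for 16 weeks against lean, 114 to 425 for 16 against 4 weeks, 373 to 781 and 3 to 28 for 16 weeks against lean in KO and WT, 4 to 35 for KO against WT at 16 weeks, 4 to 11 on the lean diet, 4 to 8 at 4 weeks, 0 to 4 for 4 weeks against lean and 0 to 36 for the interaction. Most members had 3 counts or fewer in most libraries, which limits the differences that can be seen in them.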
